A study of Mus musculus with 16 samples.

Results

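Mucins and trefoil factors, the gel-forming, membrane-bound and accompanying small proteins of mucus, were followed through 4 sorted populations of mTEC, the epithelial cells of the medulla of the mouse thymus. The genes were taken by name: Muc1, Muc2, Muc4, Muc5ac, Muc5b, Muc13, Muc16, Tff1, Tff2 and Tff3, which are 10 of the 43432 genes in the whole series. They were chosen with earlier results of these data known, so their contrast with all tested genes is a description only. Muc16 had no row of its own in the count tables and was not analysed here, so 9 genes were measured, and all 9 passed the filter on low counts. The mice of all groups were C57BL6.Aire-CreERT2.Ai14 animals of both sexes, 5 to 6 weeks old, in which a tamoxifen-inducible Cre is driven by Aire and switches on a lasting red fluorescent protein (RFP). Tamoxifen was given at 2 mg and the thymi were collected after 7 days, so RFP+ cells expressed Aire around the time of the drug or descend from such cells, whereas RFP- cells may have expressed Aire before or after it. The gate took live epithelial cells (CD45-negative and EPCAM-positive) and split them by the label and by surface MHC class II (MHCII). At high MHCII the populations are RFP- MHCIIhi and RFP+ MHCIIhi, and at low MHCII they are RFP- MHCIIlo and RFP+ MHCIIlo. There were 4 libraries of each, and every library came from 12 pooled thymi, so that all p-values measure the spread between pools. Because every population is a bulk sample, fewer cells that carry a transcript and less transcript per cell cannot be told apart.

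Mucus is built from secreted mucins, very large proteins that are densely coated with O-linked sugars and join end to end into gels. MUC2 forms the gel of the intestine, MUC5AC that of the stomach surface and part of the airway gel, and MUC5B the main gel of the airways. Membrane mucins such as MUC1, MUC4, MUC13 and MUC16 stay anchored at the cell's apical surface, and trefoil factors are small secreted peptides that accompany the gels, TFF1 and TFF2 mainly in the stomach and TFF3 in intestinal goblet cells. In the thymus, mTEC express many such tissue-restricted genes and display them to developing T cells, partly under the control of Aire, and some mTEC resemble cells of peripheral epithelia, secretory cells among them.

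The 16 libraries held 7.93 to 19.46 M counted reads (M, mega), with a median of 13.28 M. RFP+ MHCIIlo libraries were made from 19400 to 20500 cells, and all other libraries from 80500 to 164000. Pearson correlations of log2 levels between libraries of a population ran from 0.9495 to 0.9674 in RFP+ MHCIIlo and from 0.9869 to 0.9905 in RFP- MHCIIhi. Levels are counts per M reads after TMM scaling (CPM), given as mean ± SD with n = 4. The gate was visible in the MHC class II transcript H2-Aa, at 4695 ± 157 CPM in RFP- MHCIIhi and, with the label, 5372 ± 395 CPM in RFP+ MHCIIhi. At low MHCII, RFP- MHCIIlo held 1317 ± 291 CPM and RFP+ MHCIIlo 959 ± 187 CPM, and Epcam was present in all 16 libraries at 321 to 620.4 CPM. Aire was at 977 ± 56.0 CPM in RFP- and 586 ± 32.4 CPM in RFP+ MHCIIhi cells, and at 37.9 ± 23.4 and 50.7 ± 25.3 CPM in their MHCIIlo counterparts. Transcripts of other cell types also differed between the populations. All 6 of 6 mesenchymal markers were detected, and their summed level was 341 to 784 CPM in RFP- MHCIIlo against 41.2 to 131 CPM in RFP+ MHCIIlo, 133 to 140.3 CPM in RFP- MHCIIhi and 109 to 123 CPM in RFP+ MHCIIhi. The 11 thymocyte markers, also all detected, summed to 323 to 749.6 CPM in RFP- MHCIIhi and to at most 146 CPM elsewhere. The 6 markers of cortical thymic epithelium summed to 1693 to 2645 CPM in RFP- MHCIIhi and 802 to 1064 CPM in RFP+ MHCIIhi. At low MHCII they summed to 337 to 456.5 CPM in RFP- and 163 to 274.5 CPM in RFP+ cells. All 6 were lower on average in RFP+ than in RFP- MHCIIhi cells, but by unlike amounts. Ccl25, a large part of the sum, stood at 920 ± 191 CPM in RFP- and 512.5 ± 81.05 CPM in RFP+ MHCIIhi. Psmb11 stood at 194 ± 59.7 and 22.5 ± 11.55 CPM, and Prss16 at 322 ± 83.6 and 44.2 ± 24.0 CPM. The part of any of these lists in the results that follow was not tested. Transcripts of airway secretory cells set 1 library apart: RFP- MHCIIlo replicate 1 held 972 CPM over 7 airway markers, against 373.6 to 528 CPM in the other libraries of its population. The differences of Muc5b and Muc4 that use this library are given with and without it.

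The genes lie on 5 chromosomes (GRCm38, GENCODE M21, all protein-coding). The secreted mucins stand side by side on chromosome 7, with Muc2 (ENSMUSG00000025515) at chr7:141690340-141754693, Muc5ac (ENSMUSG00000037974) at chr7:141788972-141819231 and Muc5b (ENSMUSG00000066108) at chr7:141839070-141873084, all on the plus strand. The trefoil genes form a second cluster on the minus strand of chromosome 17, with Tff3 (ENSMUSG00000024029) at chr17:31125306-31129646, Tff2 (ENSMUSG00000024028) at chr17:31141049-31144282 and Tff1 (ENSMUSG00000024032) at chr17:31161395-31165277. Muc1 (ENSMUSG00000042784) lies at chr3:89229057-89233381. Muc4 (ENSMUSG00000079620) at chr16:32735886-32782391 and Muc13 (ENSMUSG00000022824) at chr16:33794037-33819934 share chromosome 16. Muc16 (ENSMUSG00000109564) is annotated at chr9:18495455-18674530.

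What the trefoil factors share is the trefoil fold, a looped structure held by 3 pairs of cysteines. The coding stretches that hold its 6 cysteine codons are shown from first to last cysteine, since they encode what the 3 neighbouring genes have in common. Each was read 5′ to 3′ from the M21 transcripts, and capitals mark the in-frame cysteine codons.
Tff1: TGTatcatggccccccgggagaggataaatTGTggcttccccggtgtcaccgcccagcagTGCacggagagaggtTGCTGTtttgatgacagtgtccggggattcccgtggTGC
Tff2, first: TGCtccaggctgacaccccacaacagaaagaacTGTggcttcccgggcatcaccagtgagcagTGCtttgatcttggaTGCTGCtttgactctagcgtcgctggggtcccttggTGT
Tff2, second: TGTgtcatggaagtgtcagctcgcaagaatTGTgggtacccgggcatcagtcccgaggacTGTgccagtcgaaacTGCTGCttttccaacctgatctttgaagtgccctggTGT
Tff3: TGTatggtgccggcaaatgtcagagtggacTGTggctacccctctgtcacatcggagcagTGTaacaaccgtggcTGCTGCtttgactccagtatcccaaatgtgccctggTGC
Tff1 and Tff3 have 1 such stretch and Tff2 has 2, of 114 to 117 bases. Aligned pairs were identical at 56.1 to 63.9% of columns, and the longest run shared by the transcripts of any 2 trefoil genes was 14 bases, so a read of ordinary length tells them apart.

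The secreted mucins were less easily separated, but only over short runs: the longest was 42 bases between Muc5ac and Muc5b. No 50-base word of the Muc1, Muc2, Muc5ac, Muc5b, Tff2 or Tff3 transcripts occurred in a transcript of another gene. For Muc2 the search covered only its longest transcript model, of 2926 bases, while the union of its exons has 7127 bases. Within a transcript, 23.2% of 50-base words in Muc5ac, 21.9% in Muc5b, 14.2% in Muc13 and 10.1% in Muc4 occurred more than once, against 1.3% in Muc1 and 0.0% in the Muc2 transcript model. Words shared with another gene made up 19.3% of Tff1 (with the antisense gene Gm15318), 3.5% of Muc13 (with the antisense Gm15657) and 2.1% of Muc4 (with Muc20 on the opposite strand). No source used here says whether the authors' counting used strand, and these 3 values are uncertain to that extent. The partners were low: Gm15318 had at most 1.24 CPM, Gm15657 at most 8.39 CPM and Muc20 at most 13.7 CPM in any library.

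**Figure D1:**
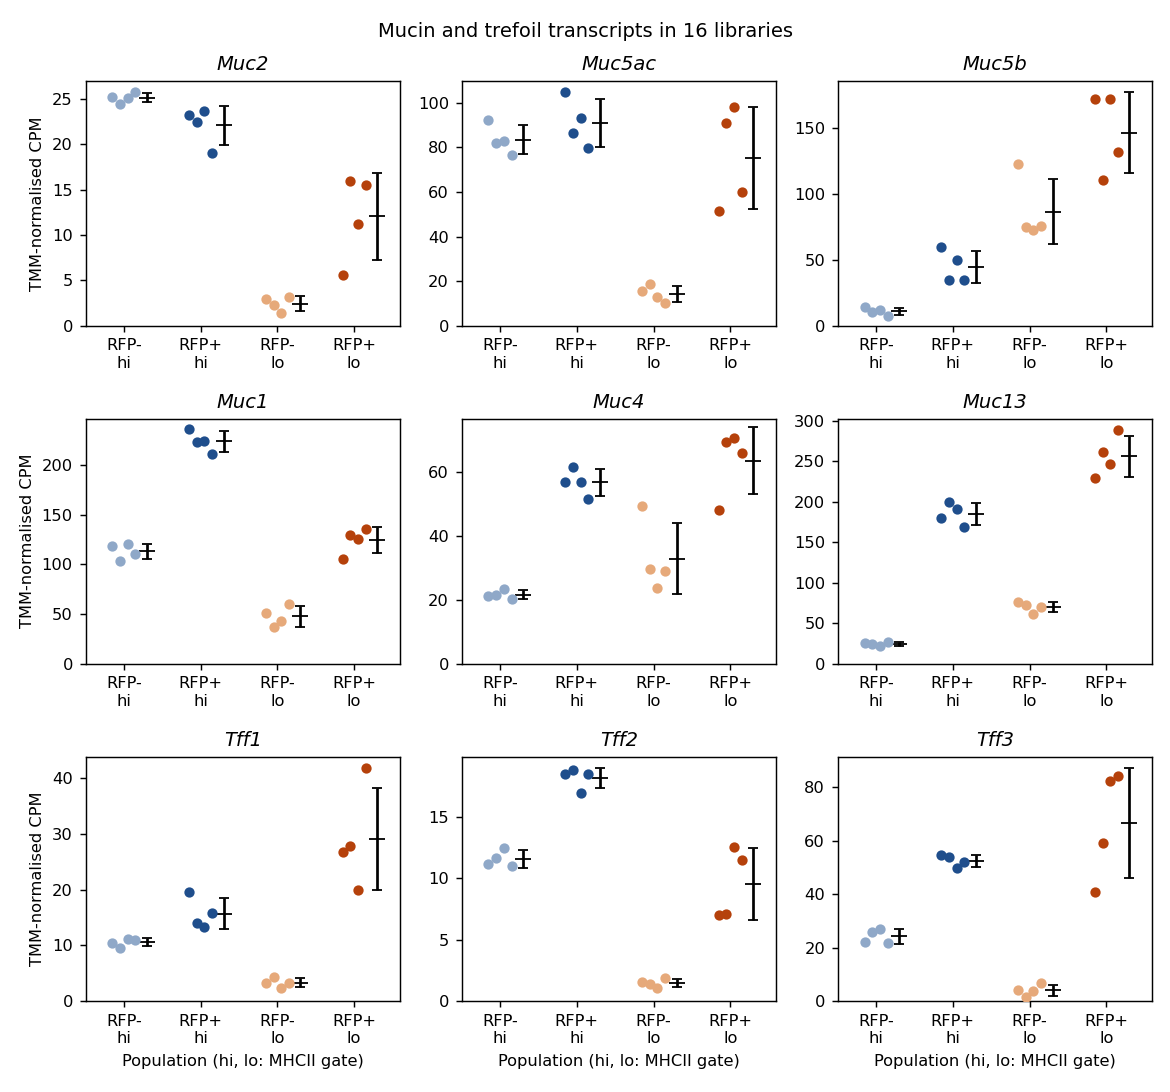
Level of each measured mucin and trefoil transcript in TMM-normalised counts per M reads (CPM; y axis, linear, from 0) in the 4 populations (x axis), with 1 point per library and the mean ± SD beside the points. Muc2, Muc5ac, Muc1, Tff1, Tff2 and Tff3 are lowest in RFP- MHCIIlo, while Muc4, Muc5b and Muc13 are lowest in RFP- MHCIIhi.

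The 9 genes followed 2 patterns. Muc1, Muc2, Muc5ac, Tff1, Tff2 and Tff3 were lower in unlabelled MHCIIlo cells than in unlabelled MHCIIhi cells, by log2 1.25 for Muc1 up to 3.37 for Muc2, while Muc4, Muc5b and Muc13 were higher there, by log2 0.60, 2.97 and 1.52. A gene is called higher or lower where the Benjamini-Hochberg adjusted p of edgeR's quasi-likelihood test over 19617 genes is under 0.05. By that rule 3 of 9 were higher and 6 of 9 lower in RFP- MHCIIlo against RFP- MHCIIhi, where 69.1% of all tested genes were called (33.5% higher and 35.6% lower). In MHCIIlo cells all 9 of 9 were higher in RFP+ than in RFP-, with a median log2 difference of 2.31, against 28.9% of all tested genes called higher (51.6% in either direction) and a median over all genes of 0.07; without RFP+ MHCIIlo replicates 1 and 4 the count was also 9. In MHCIIhi cells 7 of 9 were higher and 0 lower in RFP+ (median log2 0.99), where 23.8% of all tested genes were called higher (45% in either direction) and the median over all genes was -0.02. Within labelled cells 3 were higher, 3 lower and 3 not called in RFP+ MHCIIlo against RFP+ MHCIIhi. This split was near that of all tested genes, of which 55.6% were called (27.5% higher and 28.1% lower). The remaining pairs were tested only to order the populations of each gene: 68.5% of genes were called in RFP+ MHCIIlo against RFP- MHCIIhi (33.6% higher and 34.9% lower) and 65.9% in RFP+ MHCIIhi against RFP- MHCIIlo (35.3% higher and 30.6% lower). Comparisons with a population in common share its libraries and are not independent of each other.

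**Figure D2:**
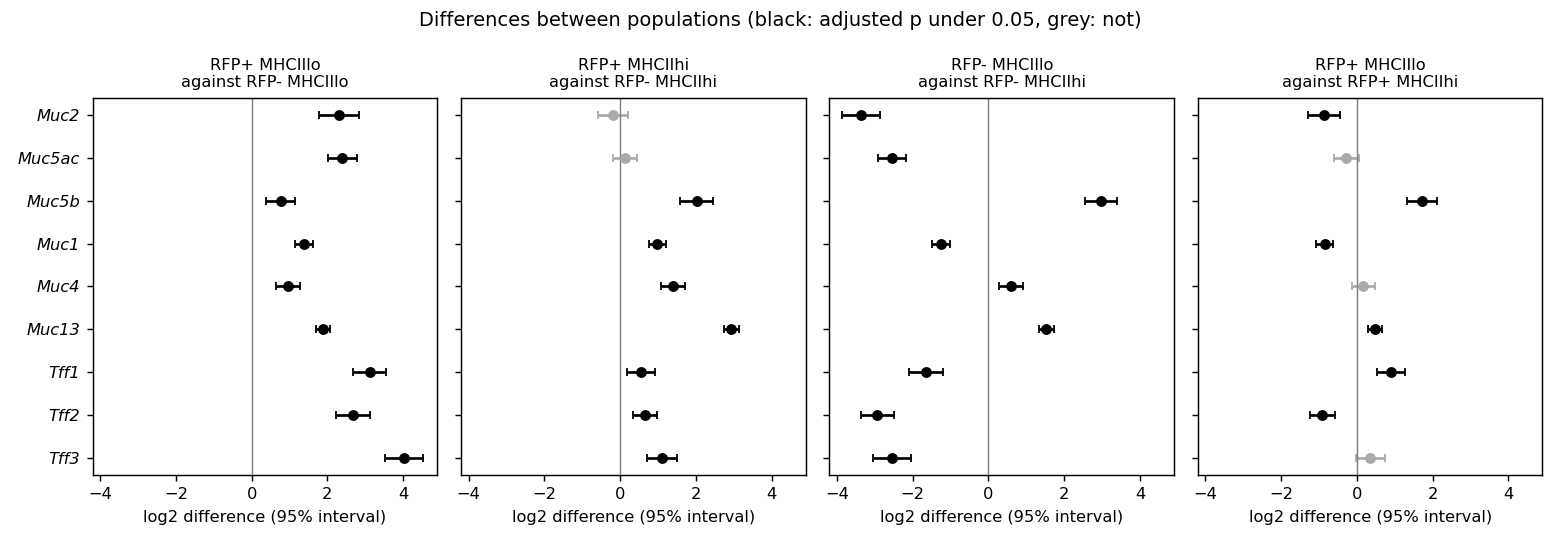
Log2 difference with its 95% interval (x axis) for each measured gene (y axis) in 4 comparisons of populations, black where the adjusted p is under 0.05 and grey where it is not. All 9 genes lie to the right of 0 in RFP+ MHCIIlo against RFP- MHCIIlo, and 6 lie to the left in RFP- MHCIIlo against RFP- MHCIIhi.

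Among the secreted mucins, Muc2, which forms the intestinal gel, was highest in MHCIIhi cells. Its 4 libraries held 25.2, 24.5, 25.1 and 25.7 CPM in RFP- MHCIIhi, while RFP+ MHCIIhi held 23.2, 22.5, 23.6 and 19.0 CPM. RFP- MHCIIlo held 2.97, 2.29, 1.36 and 3.18 CPM, and RFP+ MHCIIlo 5.61, 15.9, 11.2 and 15.5 CPM. No library of either MHCIIlo population reached a library of the MHCIIhi populations, and the lowest labelled MHCIIlo library lay above the highest unlabelled one. RFP- MHCIIlo was 10.3-fold below RFP- MHCIIhi (log2 -3.37, SE 0.24, adjusted p = 1.9e-11) and RFP+ MHCIIlo 4.96-fold above RFP- MHCIIlo (log2 2.31, SE 0.26, adjusted p = 7.3e-08). In MHCIIhi cells all 4 labelled libraries lay below the unlabelled ones, but the difference was not called (log2 -0.19, 95% interval -0.57 to 0.20, adjusted p = 0.44), and labelled cells were lower at low MHCII than at high (log2 -0.87, SE 0.20, adjusted p = 8e-04). The RFP- MHCIIlo values rest on 16 to 37 reads per library.

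Muc5ac, the gel mucin of the stomach surface and the airways, was also lowest in RFP- MHCIIlo. RFP- MHCIIhi held 92.2, 81.9, 83.0 and 76.4 CPM and RFP+ MHCIIhi 105, 86.3, 93.2 and 79.9 CPM. RFP- MHCIIlo held 15.5, 18.8, 12.7 and 10.2 CPM, and RFP+ MHCIIlo 51.3, 91.1, 98.2 and 60.2 CPM. Only RFP- MHCIIlo stood apart, and the labelled MHCIIlo libraries fell into a lower pair (replicates 1 and 4) and a higher pair. Labelled MHCIIlo cells were 5.25-fold above unlabelled ones (log2 2.39, SE 0.18, adjusted p = 1.2e-10), and unlabelled MHCIIlo cells 5.84-fold below unlabelled MHCIIhi cells (log2 -2.55, SE 0.18, adjusted p = 1.4e-11). No neighbours in the order RFP+ MHCIIhi, RFP- MHCIIhi, RFP+ MHCIIlo differed by the test (adjusted p = 0.54 and 0.41), and RFP+ MHCIIlo against RFP+ MHCIIhi was not called (log2 -0.28, 95% interval -0.61 to 0.05, adjusted p = 0.14). The sign of this last difference depended on the lower pair, and without replicates 1 and 4 it was 0.05 (adjusted p = 0.78), while it was called lower without replicate 2 (log2 -0.41, adjusted p = 0.049) or replicate 3 (log2 -0.46, adjusted p = 0.02).

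Muc5b, the main airway gel mucin and the next gene along the chromosome, was ordered otherwise. RFP- MHCIIhi held 14.03, 10.4, 11.6 and 7.80 CPM and RFP+ MHCIIhi 59.6, 34.9, 49.96 and 35.0 CPM. RFP- MHCIIlo held 123, 75.2, 72.6 and 75.7 CPM, and RFP+ MHCIIlo 172, 110.6, 172 and 132 CPM. Here RFP- MHCIIhi was the lowest population, and the groups were separate except that the highest RFP- MHCIIlo library passed the lowest RFP+ MHCIIlo one. Unlabelled MHCIIlo cells were 7.84-fold above unlabelled MHCIIhi cells (log2 2.97, SE 0.21, adjusted p = 1.4e-11), and the label went with a 4.06-fold higher level in MHCIIhi cells (log2 2.02, SE 0.21, adjusted p = 2.6e-08). In MHCIIlo cells the difference between RFP+ and RFP- was 1.70-fold (log2 0.76, SE 0.19, adjusted p = 0.0014).

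That overlap came from RFP- MHCIIlo replicate 1, the library with the high sum of airway markers. Scgb1a1, the secretoglobin of club cells, stood at 91.2 CPM there and at 5.11 to 6.96 CPM in the other libraries of its population, and Scgb3a1, a second secretoglobin, added after its values were seen, at 116 against 3.35 to 5.93 CPM. Scgb3a1 was at most 8.06 CPM in every other library of the study, while Scgb1a1 was 126 to 148 CPM in RFP+ MHCIIlo. Without this library, Muc5b differed between RFP+ MHCIIlo and RFP- MHCIIlo by log2 0.97 (adjusted p = 7.9e-05) and between RFP- MHCIIlo and RFP- MHCIIhi by log2 2.76 (adjusted p = 1.5e-11). The airway sum, which includes Muc5b, had a median of 121 CPM in RFP- MHCIIhi and, with the label, 503 CPM in RFP+ MHCIIhi. At low MHCII, RFP- MHCIIlo held 484 CPM and RFP+ MHCIIlo 844.5 CPM. Like Muc5b, this sum was lowest in RFP- MHCIIhi and highest in RFP+ MHCIIlo, as were the means of Scgb3a2, Cyp2f2 and Ltf. Bpifb1 was instead lowest in RFP- MHCIIlo (12.0 ± 8.80 CPM) and highest in RFP+ MHCIIhi (39.5 ± 4.94 CPM), where Bpifa1 was also highest (217 ± 17.8 CPM). Apart from replicate 1, the RFP- MHCIIlo libraries held less Scgb1a1 than any RFP- MHCIIhi library (18.2 to 27.5 CPM). The 5 markers of tuft cells, chemosensory epithelial cells, followed the population order of Muc5b without overlap. At high MHCII they summed to 73.3 to 87.8 CPM in RFP- and 298.5 to 388 CPM in RFP+ cells. At low MHCII they summed to 852 to 1365 CPM in RFP- and 1708 to 2548 CPM in RFP+ cells. The part of either list in the Muc5b differences was not tested.

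The balance of Muc5ac and Muc5b transcripts thus differed between the gates. In unlabelled cells both genes differed, in opposite directions. In labelled cells Muc5b was higher at low MHCII (log2 1.71, adjusted p = 6.6e-08), while Muc5ac was not called (log2 -0.28, adjusted p = 0.14). Of the reads per kb of exon on Muc5ac and Muc5b together, Muc5ac held 91.4 ± 1.3% in RFP- MHCIIhi, 74.2 ± 3.07% in RFP+ MHCIIhi, 19.0 ± 4.96% in RFP- MHCIIlo and 41.5 ± 10.1% in RFP+ MHCIIlo (SD, n = 4 each). The ranges of the 4 populations did not overlap: 90.1 to 93.2%, 71.0 to 77.5%, 14.9 to 25.8% and 29.3 to 53.4%. Without RFP- MHCIIlo replicate 1, an alternative chosen after seeing the data, the share in that population was 20.4 ± 5.06% (n = 3). Muc2 was left out of this share because its M21 transcript models are fragments, the longest being 2926 bases, so that its level per kb is uncertain.

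The membrane mucins were all higher with the label in both gates, and differed in their order by gate. Muc1, a signalling mucin of most glandular epithelia, held 118, 103, 120.2 and 110.5 CPM in RFP- MHCIIhi and, with the label, 236.5, 223, 224.5 and 211 CPM in RFP+ MHCIIhi. At low MHCII, RFP- MHCIIlo held 51.0, 36.4, 42.6 and 60.1 CPM and RFP+ MHCIIlo 106, 129.8, 126 and 136 CPM. RFP+ MHCIIhi was above and RFP- MHCIIlo below every other library, while RFP- MHCIIhi and RFP+ MHCIIlo overlapped and did not differ by the test (log2 0.14, 95% interval -0.09 to 0.37, adjusted p = 0.27). The label difference was 2.62-fold in MHCIIlo (log2 1.39, SE 0.12, adjusted p = 5.1e-10) and 1.98-fold in MHCIIhi cells (log2 0.99, SE 0.11, adjusted p = 8.3e-08). Labelled MHCIIlo cells were 1.80-fold below labelled MHCIIhi cells (log2 -0.85, SE 0.11, adjusted p = 6.4e-07).

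Muc4, a large mucin with growth factor-like domains that is known from the airways and colon, held 21.2, 21.5, 23.4 and 20.2 CPM in RFP- MHCIIhi and, with the label, 56.9, 61.7, 57.0 and 51.4 CPM in RFP+ MHCIIhi. At low MHCII, RFP- MHCIIlo held 49.2, 29.5, 23.7 and 29.1 CPM and RFP+ MHCIIlo 48.0, 69.5, 70.5 and 65.9 CPM. Labelled cells were high in both gates, and RFP- MHCIIlo replicate 1 was again the highest of its population. The label difference was 2.63-fold in MHCIIhi (log2 1.40, SE 0.15, adjusted p = 6.8e-08) and 1.94-fold in MHCIIlo cells (log2 0.96, SE 0.15, adjusted p = 1.4e-05), the latter being log2 1.21, also called, without that library. Between unlabelled populations Muc4 was higher at low MHCII by log2 0.60 (SE 0.16, adjusted p = 0.0017), a value that fell to 0.35 (adjusted p = 0.014) without RFP- MHCIIlo replicate 1. Between labelled populations it was not called (log2 0.16, 95% interval -0.14 to 0.47, adjusted p = 0.36).

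Muc13, a membrane mucin of the intestinal surface, had the largest label difference in MHCIIhi cells among the 9 genes. Its libraries held 25.1, 24.2, 21.2 and 26.1 CPM in RFP- MHCIIhi and, with the label, 179.9, 200.2, 191 and 168 CPM in RFP+ MHCIIhi. RFP- MHCIIlo held 75.6, 71.8, 60.8 and 70.5 CPM and RFP+ MHCIIlo 229, 261, 246.5 and 289 CPM. No 2 populations overlapped, and each neighbour in the order differed by the test. The label difference was 7.63-fold in MHCIIhi (log2 2.93, SE 0.10, adjusted p = 1.4e-16) and 3.68-fold in MHCIIlo cells (log2 1.88, SE 0.09, adjusted p = 5.8e-14). Labelled cells were 1.39-fold higher at low than at high MHCII (log2 0.47, SE 0.09, adjusted p = 7.5e-05).

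All 3 trefoil factors were lowest in unlabelled MHCIIlo cells and higher with the label in both gates, but they peaked in different labelled populations. Tff1, a peptide of the stomach surface, held 10.5, 9.60, 11.1 and 11.1 CPM in RFP- MHCIIhi and, with the label, 19.5, 14.03, 13.3 and 15.8 CPM in RFP+ MHCIIhi. In the low gate, RFP- MHCIIlo held 3.29, 4.40, 2.38 and 3.35 CPM and RFP+ MHCIIlo 26.8, 27.7, 20.01 and 41.9 CPM. The 4 populations did not overlap, with RFP+ MHCIIlo highest at 1.87-fold above RFP+ MHCIIhi (log2 0.91, SE 0.18, adjusted p = 0.00013). Labelled MHCIIlo cells were 8.68-fold above unlabelled ones (log2 3.12, SE 0.21, adjusted p = 1.7e-11). In MHCIIhi cells the label difference was 1.48-fold (log2 0.56, SE 0.18, adjusted p = 0.013) and was no longer called without RFP+ MHCIIhi replicate 1, the highest of its population (log2 0.44, adjusted p = 0.07).

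Tff2, the trefoil factor of gastric neck mucus, held 11.1, 11.7, 12.5 and 10.95 CPM in RFP- MHCIIhi and, with the label, 18.4, 18.8, 16.9 and 18.4 CPM in RFP+ MHCIIhi. RFP- MHCIIlo held only 1.59, 1.44, 1.11 and 1.89 CPM and RFP+ MHCIIlo 7.01, 7.06, 12.6 and 11.5 CPM. It was the trefoil factor that peaked at high MHCII: RFP+ MHCIIlo lay 1.89-fold below RFP+ MHCIIhi (log2 -0.92, SE 0.16, adjusted p = 4.4e-05), and its libraries fell into a lower and a higher pair, the higher near the values of RFP- MHCIIhi. The label difference was 6.36-fold in MHCIIlo (log2 2.67, SE 0.22, adjusted p = 3.6e-10) and 1.57-fold in MHCIIhi cells (log2 0.65, SE 0.15, adjusted p = 0.0013). The RFP- MHCIIlo values rest on 13 to 22 reads per library.

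Tff3, the trefoil factor of intestinal goblet cells, held 22.2, 26.0, 27.0 and 21.6 CPM in RFP- MHCIIhi and, with the label, 54.5, 53.9, 49.6 and 51.9 CPM in RFP+ MHCIIhi. The low gate gave 4.24, 1.61, 4.00 and 6.70 CPM in RFP- MHCIIlo, and RFP+ MHCIIlo held 40.9, 59.0, 82.2 and 84.0 CPM. The labelled populations overlapped and lay above both unlabelled ones, and the RFP+ MHCIIlo libraries spanned a wide range. In MHCIIlo cells the label difference was 16.1-fold (log2 4.01, SE 0.24, adjusted p = 2.3e-12), the largest of the 9 genes. It was log2 3.73 without RFP- MHCIIlo replicate 2 and 4.36 without RFP- MHCIIlo replicate 4, and the RFP- MHCIIlo values rest on 19 to 78 reads per library. Labelled MHCIIhi cells were 2.17-fold above unlabelled ones (log2 1.12, SE 0.19, adjusted p = 3.7e-05), and unlabelled MHCIIlo cells 5.84-fold below unlabelled MHCIIhi cells (log2 -2.55, SE 0.25, adjusted p = 3.4e-09). Labelled cells of the 2 gates did not differ by the test (log2 0.35, 95% interval -0.04 to 0.73, adjusted p = 0.12), although they did without RFP+ MHCIIlo replicate 1 (log2 0.52, adjusted p = 0.0084).

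Of the reads per kb on the 3 trefoil genes, Tff3 held 58.4 ± 2.34% in RFP- MHCIIhi, 66.7 ± 1.31% in RFP+ MHCIIhi, 51.1 ± 16.4% in RFP- MHCIIlo and 69.4 ± 6.01% in RFP+ MHCIIlo. Tff2 held 23.6 ± 0.49%, 19.5 ± 0.62%, 16.7 ± 2.85% and 8.47 ± 1.26% in the same order, and its range in RFP+ MHCIIlo (7.05 to 9.91%) lay below that of each other population. Per kb of exon, Tff3 was the highest of the 9 genes in 3 populations, at 49.1 ± 5.5 CPM per kb in RFP- MHCIIhi, 106 ± 4.53 in RFP+ MHCIIhi and 135 ± 41.7 in RFP+ MHCIIlo. In RFP- MHCIIlo Muc13 led instead, at 22.9 ± 2.07 CPM per kb, with Muc1 next at 20.3 ± 4.39 and Tff3 at 8.39 ± 4.22. Muc1 and Tff3 differed by less than their spread in RFP- MHCIIhi, where Muc1 stood at 48.1 ± 3.39 CPM per kb.

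**Figure D3:**
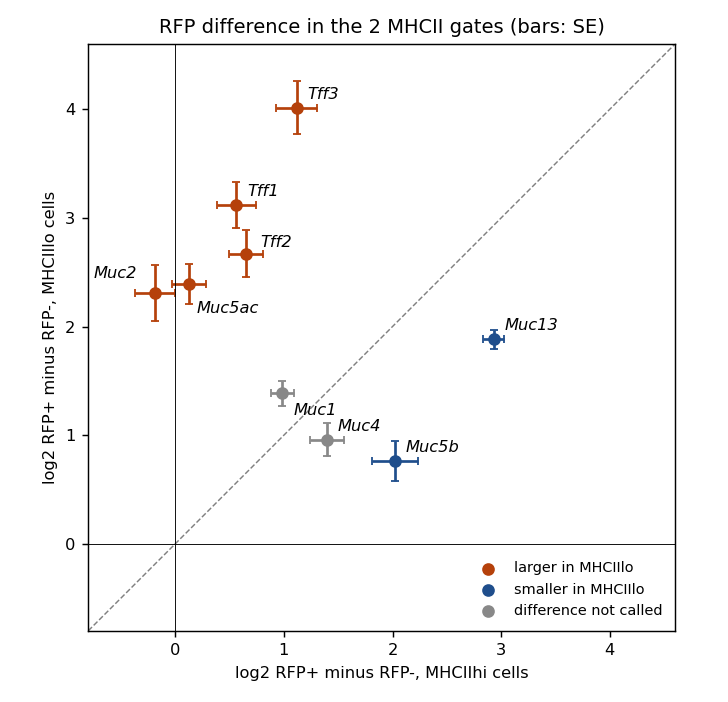
Log2 difference between RFP+ and RFP- cells in the MHCIIlo gate (y axis) against the same in the MHCIIhi gate (x axis) for each measured gene, with standard errors, and the line of equal differences dashed. Muc2, Muc5ac, Tff1, Tff2 and Tff3 lie above the line, Muc5b and Muc13 below it, and the differences between the gates of Muc1 and Muc4 were not called.

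Whether the label difference itself depended on the gate was tested with the interaction of RFP and MHCII. It was larger in MHCIIlo cells for 5 of 9 genes and smaller for 2 of 9, where 34.1% of all tested genes were called (17.5% larger and 16.6% smaller). The median over the 9 was log2 2.02 and that over all tested genes 0.04. The 5 were Tff3 (log2 2.89, SE 0.31, adjusted p = 1.5e-07), Tff1 (2.55, SE 0.28, adjusted p = 1.8e-07), Muc2 (2.50, SE 0.32, adjusted p = 1.9e-06), Muc5ac (2.27, SE 0.24, adjusted p = 1.2e-07) and Tff2 (2.02, SE 0.27, adjusted p = 3.3e-06). They are the gel mucins and trefoil factors of gut and stomach, and each was lower in RFP- MHCIIlo than in RFP- MHCIIhi. The 2 with a smaller difference in MHCIIlo cells were the airway mucin Muc5b (log2 -1.26, SE 0.28, adjusted p = 0.0011; log2 -1.05, also called, without RFP- MHCIIlo replicate 1) and the intestinal surface mucin Muc13 (log2 -1.05, SE 0.13, adjusted p = 9e-07). Muc1 (log2 0.40, adjusted p = 0.052) and Muc4 (log2 -0.44, adjusted p = 0.12) were not called, although Muc1 lay close to the threshold and was called larger without RFP- MHCIIhi replicate 2, without RFP- MHCIIlo replicate 1 or 4, or without RFP+ MHCIIlo replicate 1 (log2 0.44, 0.43, 0.53 and 0.47). Muc4 was called smaller without RFP- MHCIIlo replicate 3 (log2 -0.57, adjusted p = 0.034) and was at log2 -0.19 (adjusted p = 0.39) without replicate 1.

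**Figure D4:**
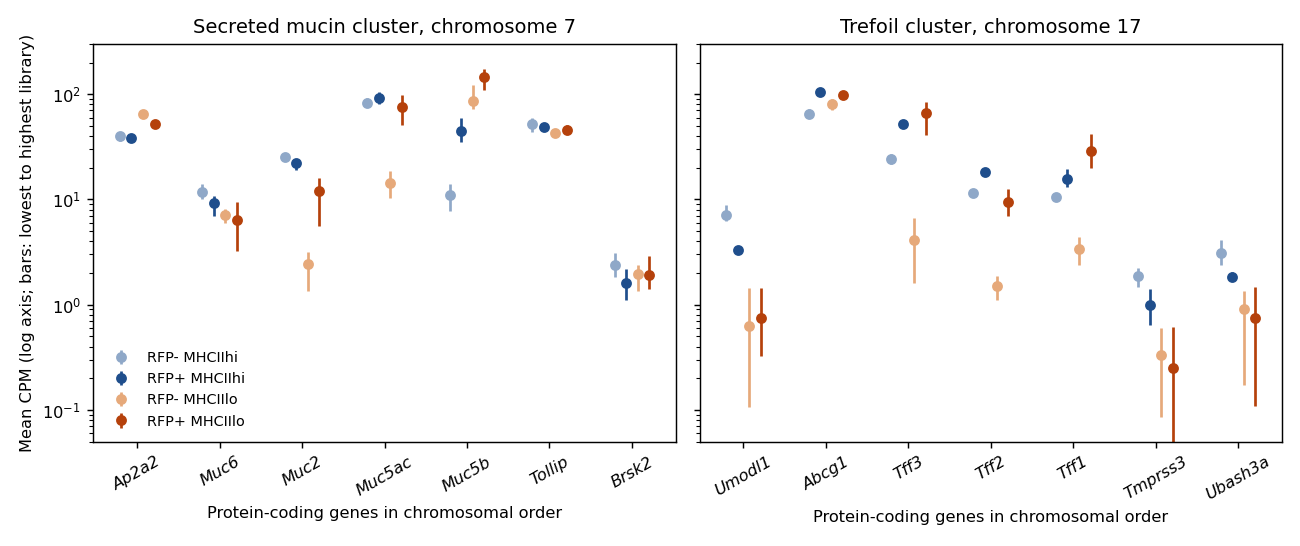
Mean CPM (y axis, log scale) of the protein-coding genes of the secreted mucin cluster and of the trefoil cluster in chromosomal order (x axis), coloured by population, with bars from the lowest to the highest library; the bar of Tmprss3 in RFP+ MHCIIlo reaches 0 and is cut at the axis. The order of the population means is not the same for all genes of either cluster, although Tff1 and Tff3 share an order, as do Tmprss3 and Ubash3a.

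The members of each cluster were compared with the nearest 2 protein-coding genes on either side. Next to Muc2, 35.0 kb away on the other strand, lies Muc6, the gland mucin of the stomach. Muc6 was low in all populations, at 11.9 ± 1.83, 9.31 ± 1.71, 7.14 ± 0.85 and 6.31 ± 2.73 CPM in unlabelled MHCIIhi, labelled MHCIIhi, unlabelled MHCIIlo and labelled MHCIIlo cells, and its label difference in MHCIIlo cells was not called (log2 -0.18, SE 0.23, adjusted p = 0.54). Tollip, an adaptor of innate signalling only 1.7 kb past Muc5b, was at 42.6 to 51.8 CPM on average in the 4 populations, without a called label difference in either gate. Ap2a2, an endocytic adaptor subunit, was lower with the label in MHCIIlo cells (log2 -0.32, SE 0.08, adjusted p = 0.0028), and Brsk2, a kinase of neurons and islets, stayed at 1.62 to 2.40 CPM on average with no called difference. Muc2, Muc5ac and Muc5b were higher with the label in MHCIIlo cells, and none of the 4 flanking genes was. Of all tested genes 28.9% were called higher in that comparison, so a count over 4 genes cannot set the mucins apart from their surroundings.

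At the trefoil cluster, Abcg1, a cholesterol transporter 7.3 kb from Tff3, was higher with the label in both gates, by log2 0.30 in MHCIIlo (SE 0.09, adjusted p = 0.0059) and by log2 0.69 in MHCIIhi cells (SE 0.09, adjusted p = 4.6e-07). In MHCIIhi cells it stood at 65.4 ± 4.61 CPM in RFP- and 105.4 ± 8.65 CPM in RFP+, without overlap, a log2 difference near those of Tff1 and Tff2 there. Umodl1, Tmprss3 and Ubash3a on the outer sides were not called in MHCIIlo cells (adjusted p = 0.72, 0.57 and 0.68). These 3 had 7.04 ± 1.18, 1.89 ± 0.34 and 3.06 ± 0.73 CPM in RFP- MHCIIhi and under 1 CPM on average in both MHCIIlo populations, whereas the trefoil genes in between were at 9.53 to 66.5 CPM in RFP+ MHCIIlo. Ubash3a is a regulator of T cell signalling, and the thymocyte markers given above were also highest in RFP- MHCIIhi.

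Upstream sequence could be read for 4 of the 9 measured genes, from RefSeq promoters on GRCm38.p6: Muc1, Muc2, Muc4 and Muc13. The 250 bases before the start of Muc2 and of Muc13 are shown, plus strand, 5′ to 3′, because these genes differed most between populations among the 4 and in different ways. Capitals mark GATAA, the core word of GATA factors, searched on both strands.
Muc2, chr7:141690090-141690339: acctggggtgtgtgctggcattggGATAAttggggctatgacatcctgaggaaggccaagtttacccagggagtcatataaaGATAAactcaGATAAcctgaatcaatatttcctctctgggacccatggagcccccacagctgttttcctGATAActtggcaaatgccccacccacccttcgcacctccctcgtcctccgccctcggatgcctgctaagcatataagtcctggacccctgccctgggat
Muc13, chr16:33793787-33794036: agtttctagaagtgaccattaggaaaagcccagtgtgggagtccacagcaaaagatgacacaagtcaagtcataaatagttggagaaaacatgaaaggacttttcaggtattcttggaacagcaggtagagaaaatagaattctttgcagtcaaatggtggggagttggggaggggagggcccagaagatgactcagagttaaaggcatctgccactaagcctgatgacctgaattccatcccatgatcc
GATAA occurred 4 times before Muc2 and 0 times before Muc1, Muc4 and Muc13, and 22.6% of 32851 promoter windows of the same length hold it at least once. TATAA occurred 2 times before Muc2, 2 times before Muc4 and 1 time before Muc1 (22.8% of windows hold it), and the GC box GGGCGG 2 times before Muc1 and 1 time before Muc2 (32.7%). The forkhead core TGTTT had 1 match before each of the 4 genes (46.4%). RefSeq gives Muc13 a second window, chr16:33794239-33794488, whose start is not the GENCODE gene start, and it held 0 matches of these words. These words do not contain one another, and a match describes the letters of the window only.

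The other genes of mucus were taken as 4 lists, also chosen with earlier results of these data known. Over all tested genes, 28.9% were called higher and 22.7% lower in RFP+ MHCIIlo against RFP- MHCIIlo. In RFP+ MHCIIhi against RFP- MHCIIhi these shares were 23.8% and 21.2%. They are the background for the counts of each list below. Of 12 further mucin genes that could be tested, 7 were higher and 1 lower in RFP+ MHCIIlo against RFP- MHCIIlo (median log2 0.93), and 6 were higher and 2 lower in RFP+ MHCIIhi against RFP- MHCIIhi (median 0.48). Mucl2, a small mucin-like gene, had the largest rise in MHCIIlo cells, from 0.38 ± 0.21 CPM in RFP- MHCIIlo to 10.4 ± 1.66 CPM in RFP+ MHCIIlo (log2 4.75, adjusted p = 5.9e-13), and stood at 22.1 ± 4.39 and 34.04 ± 2.25 CPM in RFP- and RFP+ MHCIIhi. Muc15 and Muc3, membrane mucins, were higher with the label in both gates, Muc15 by log2 2.31 in MHCIIlo and 2.02 in MHCIIhi cells and Muc3 by 1.61 and 2.13. Muc20, a membrane mucin that overlaps Muc4, was higher in RFP- MHCIIlo than in RFP- MHCIIhi by log2 2.71 (SE 0.23, adjusted p = 2.6e-10) and was not called between the MHCIIlo populations (log2 0.33, adjusted p = 0.16). Emcn, endomucin of endothelial cells, was the lower one in RFP+ MHCIIlo (log2 -2.59), at 2.77 ± 1.1 CPM in RFP- MHCIIlo, while RFP+ MHCIIlo held 0.42 ± 0.32 CPM. Of the 5 endothelial markers, of which Emcn is one, 3 others were also lower in RFP+ MHCIIlo. Cdh5 stood at 13.8 ± 3.86 CPM in RFP- and 0.73 ± 0.49 CPM in RFP+ MHCIIlo, Kdr at 15.2 ± 7.44 and 0.82 ± 0.77 CPM, and Pecam1 at 11.6 ± 0.74 and 3.35 ± 0.95 CPM (adjusted p = 1.3e-09, 2.6e-08 and 1.1e-07). Tek went the other way, from 20.4 ± 5.79 to 36.3 ± 8.48 CPM (adjusted p = 0.00018), so that the sum of the 5 was 50.3 to 82.7 CPM in RFP- MHCIIlo and 36.8 to 52.9 CPM with the label. The part of these markers in the Emcn difference was not tested. In MHCIIhi cells the largest fall was that of Muc19, a gel mucin of salivary glands, from 6.7 ± 0.99 to 3.1 ± 0.56 CPM (log2 -1.12, adjusted p = 0.0041).

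Of 23 genes of mucus packaging and secretion, 14 were higher and 4 lower in RFP+ MHCIIlo against RFP- MHCIIlo (median log2 0.79), and 12 were higher and 1 lower in RFP+ MHCIIhi against RFP- MHCIIhi (median 0.39). The largest rise in MHCIIlo cells was that of Best2, a channel of colonic goblet cells, from 0.18 ± 0.06 to 1.37 ± 0.56 CPM (log2 2.86, adjusted p = 7.4e-06). In MHCIIhi cells it was that of Pigr, the receptor that carries polymeric antibodies into mucus, from 24.4 ± 0.97 to 254.5 ± 19.2 CPM (log2 3.38, adjusted p = 9e-17). The largest fall was that of Creb3l1, a transcription factor of the secretory pathway, in MHCIIlo (14.1 ± 1.92 to 7.72 ± 0.65 CPM, log2 -0.87, adjusted p = 1.2e-05), and that of Retnlb, a goblet cell peptide, in MHCIIhi cells (11.9 ± 1.26 to 6.84 ± 1.22 CPM, log2 -0.79, adjusted p = 0.0012). The count of lower genes in MHCIIlo cells was 2 without RFP- MHCIIlo replicate 3 or without RFP+ MHCIIlo replicate 4. Agr2, the disulfide isomerase that folds mucins, was higher with the label in both gates, from 14.1 ± 3.13 to 42.01 ± 2.33 CPM in MHCIIlo (log2 1.59, adjusted p = 2.9e-09) and from 6.87 ± 1.38 to 20.9 ± 3.09 CPM in MHCIIhi cells (log2 1.60, adjusted p = 6.1e-09). Clca1, a secreted protease of goblet cell mucus, rose from 45.8 ± 16.6 to 258 ± 45.7 CPM in MHCIIlo (log2 2.49, adjusted p = 1.5e-11). Zg16, a lectin of intestinal mucus, was, like Muc2, high at high MHCII and lowest in RFP- MHCIIlo, at 15.7 ± 1.46, 16.6 ± 1.32, 1.9 ± 0.88 and 8.8 ± 5.51 CPM in unlabelled MHCIIhi, labelled MHCIIhi, unlabelled MHCIIlo and labelled MHCIIlo cells. Fcgbp, the abundant mucus protein that binds IgG Fc, fell in labelled MHCIIlo cells, from 1803 ± 158 to 1191 ± 96.6 CPM (log2 -0.60, adjusted p = 1.4e-05), and rose with the label in MHCIIhi cells, from 1412 ± 192 to 2774 ± 96.5 CPM (log2 0.97, adjusted p = 1.4e-08). The stress sensor Ern2 was at 1.84 to 2.10 CPM on average with no called difference.

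The next list was drawn up for O-linked sugar chains, but also holds transporters, a chaperone and enzymes not specific to such chains. Of its 36 tested genes, 20 were higher and 6 lower with the label in MHCIIlo cells (median log2 0.48). In MHCIIhi cells 20 were higher and 5 lower with it (median 0.40). Gcnt3, the branching enzyme of mucin-type chains, showed the largest rise in MHCIIlo cells, from 1.76 ± 0.25 to 10.4 ± 1.22 CPM (log2 2.55, adjusted p = 2.8e-11), and was also higher in MHCIIhi cells by log2 0.52 (adjusted p = 0.0064). Fut2, which adds the terminal fucose of secretions, rose from 61.0 ± 13.6 to 137 ± 12.9 CPM in MHCIIlo and from 13.1 ± 0.46 to 67.5 ± 8.8 CPM in MHCIIhi cells (log2 1.17 and 2.37, adjusted p = 2.3e-08 and 9.7e-13). The sialyltransferase St3gal4 had the largest rise in MHCIIhi cells, from 3.44 ± 0.56 to 17.7 ± 1.63 CPM (log2 2.37, adjusted p = 1.6e-10). The largest falls were those of the sialyltransferases St6gal1 in MHCIIlo (11.1 ± 2.55 to 5.36 ± 1.68 CPM, log2 -1.08, adjusted p = 7.3e-05) and St6galnac4 in MHCIIhi cells (4.73 ± 0.52 to 2.45 ± 0.56 CPM, log2 -0.93, adjusted p = 0.0014). The core 1 enzyme C1galt1 was higher with the label by log2 0.68 and 1.03 (adjusted p = 4.6e-05 and 1.8e-07), and its chaperone C1galt1c1 by 0.53 and 0.73 (adjusted p = 0.0025 and 9.1e-05). A4gnt, which caps gastric gland mucin, was lower at low MHCII in unlabelled cells (log2 -4.65, adjusted p = 6.7e-09) and in labelled cells (log2 -4.05, adjusted p = 4.8e-07), at 3.6 ± 0.29 CPM in RFP- MHCIIhi, while RFP- MHCIIlo held 0.13 ± 0.15 CPM.

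Among 29 transcription factors, receptors and ligands that act in goblet and mucous cells, 15 were higher and 6 lower with the label in MHCIIlo cells (median log2 0.59). In MHCIIhi cells 14 were higher and 4 lower with it (median 0.50, and 7 lower with upper-quartile scaling). Spdef, which drives goblet cell maturation, was highest in RFP+ MHCIIlo, at 11.3 ± 2.03 CPM against 4.23 ± 0.96 CPM in RFP- MHCIIlo (log2 1.42, adjusted p = 3.3e-06), and its label difference in MHCIIhi cells was not called (log2 0.44, adjusted p = 0.089). Foxa1, Foxa2 and Foxa3, forkhead factors of gut and airway epithelium, were higher with the label in both gates, by log2 1.39, 1.51 and 1.58 in MHCIIlo and by 1.33, 0.75 and 1.88 in MHCIIhi cells. Klf4, a factor of differentiating goblet cells and epidermis, reached 153 ± 19 CPM in RFP+ MHCIIlo against 76.1 ± 6.27 CPM in RFP- MHCIIlo (log2 1.00, adjusted p = 1.5e-09). Areg, a ligand of the epidermal growth factor receptor, had the largest rise of the list in MHCIIlo cells, from 2.09 ± 0.44 to 11.9 ± 2.54 CPM (log2 2.51, adjusted p = 7.9e-11). Gfi1, a transcriptional repressor, had the largest fall in MHCIIhi cells, from 5.88 ± 1.86 to 1.86 ± 0.83 CPM (log2 -1.65, adjusted p = 0.0084). The thymocyte sum was also higher in RFP- MHCIIhi (323 to 749.6 CPM) than in RFP+ MHCIIhi (82.3 to 145.8 CPM). The part of the thymocyte transcripts in the Gfi1 difference was not tested. In MHCIIlo cells Gata6 had the largest fall, from 6.21 ± 4.47 to 1.22 ± 0.75 CPM (log2 -2.32, adjusted p = 0.00015). Gata6 is also active in mesenchymal tissues, and the mesenchymal sum was likewise highest in RFP- MHCIIlo, although its member Pdgfrb was not. The part of these markers in the Gata6 difference was not tested.

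**Figure D5:**
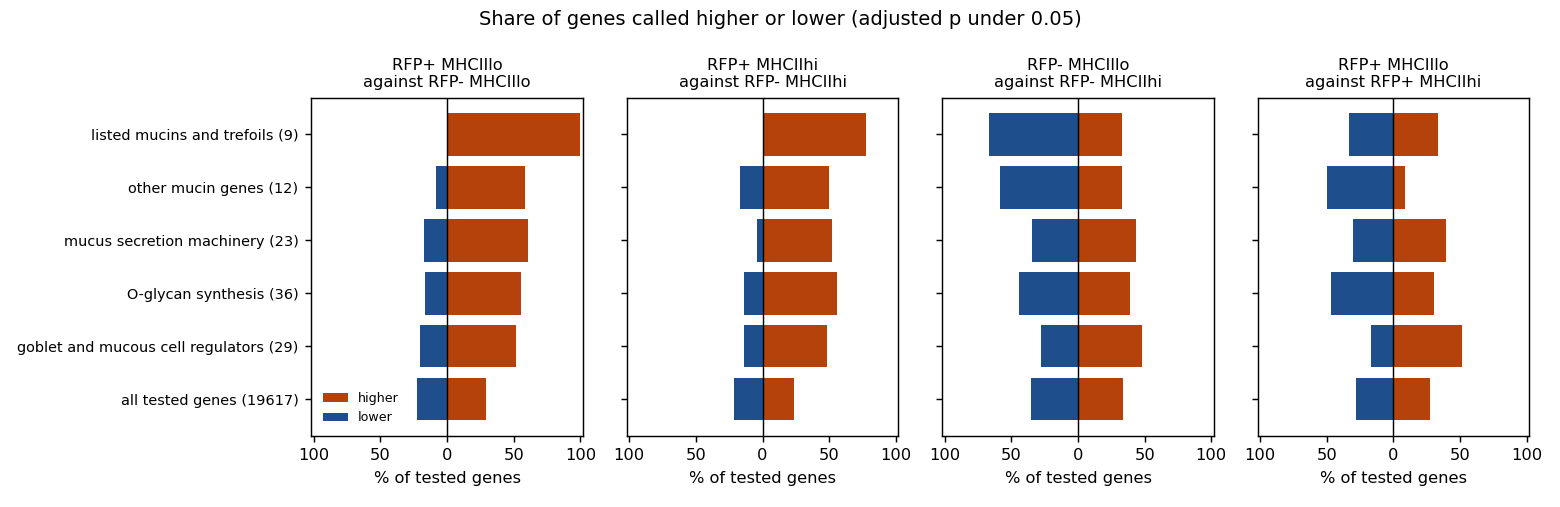
Share of tested genes (x axis, percent) called higher (right) or lower (left) in 4 comparisons for the listed mucins and trefoil factors, 4 lists of other mucus genes and all tested genes, with the number tested in brackets. All 9 listed genes are higher in RFP+ MHCIIlo against RFP- MHCIIlo, where 28.9% of all tested genes are.

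As a description, each gene was set beside the tested genes whose log2 level over the 16 libraries correlated best with it. These libraries form 4 populations, so a high r says mainly that 2 genes share the order of the populations. Muc13 was most like Cdhr5, a protocadherin of the intestinal brush border (r = 0.996), Oit1 (r = 0.995) and Bbox1 (r = 0.993). Cdhr5 stood at 43.5 ± 1.77, 218 ± 14.02, 111 ± 10.2 and 279 ± 9.46 CPM in unlabelled MHCIIhi, labelled MHCIIhi, unlabelled MHCIIlo and labelled MHCIIlo cells. Muc5b was most like the water channel Aqp4 (r = 0.989), Alox5 and Clmn. Muc2 was most like Ush1c, a scaffold of microvilli (r = 0.98), Zg16 (r = 0.972) and Slc17a1 (r = 0.97), and Muc5ac most like the alveolar surfactant gene Sftpc (r = 0.974), Orai2 and Adamts13. Tff2 was most like Mucl2 (r = 0.987), Pigz and Ptgds, Tff1 most like Gdpd1 (r = 0.964), Gcnt3 (r = 0.959) and Krt222, and Tff3 most like Ces1c (r = 0.978), Klk6 and the apolipoprotein gene Apoa1 (r = 0.968). Muc1 was most like Rac2 (r = 0.984), Sh3bgrl3 and Nlrp6, and Muc4 most like the peptide transporter Slc15a1 (r = 0.965), Mlph and Elovl7. No measured member of the set was among the 3 genes most like another.

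Between the members themselves, Muc2, Muc5ac and Tff2 had r of 0.926 to 0.946 with each other over the 16 libraries, and Muc4 and Muc13 had 0.944. Muc5b stood farthest from its neighbours on the chromosome, with r of -0.561 with Muc2 and -0.348 with Muc5ac, and had 0.786 with Muc13. Tff1, Tff2 and Tff3 had r of 0.782 to 0.906 with each other.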

How the data were processed

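RNA sequencing was done on 16 libraries of sorted mTEC, 4 per population. The values are raw counts for each Ensembl gene as the authors deposited them. The submitters' processing notes name STAR, DESeq2 and the build GRCm38. No source used here gives their versions, the annotation, the counting tool or the use of strand. Symbols and coordinates come from GENCODE M21, which matched 42462 of 43432 identifiers. Pairs of libraries within a population were compared for copies (chi-square per degree of freedom 3.18 to 36.8 over 24 pairs, where repeats would give about 1).

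The analysis used edgeR 4.0.16 in R 4.3.3: filterByExpr (minimum count 10, minimum total 15) left 19617 genes, libraries were scaled by TMM, and each contrast came from 1 quasi-likelihood fit of 4 population means, with Benjamini-Hochberg adjustment at 0.05. Log2 differences are fitted values, and log2 levels used a prior count of 2. Levels per kb used the union of exons. The fit was tested on simulated data with known changes. The members and lists were chosen with earlier results of these data known. Named genes were all members, genes set for each list, the called gene of each list with the largest difference per direction (given here for both label comparisons), the flanking genes and, for each member that reached a mean of 5 CPM in some population, the 3 genes most alike. Alternatives were other scaling, no filter, DESeq2 1.42.0, limma-voom (limma 3.58.1), a replicate block, fewer groups, other library sizes and leaving out libraries.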

Additional observations from a re-analysis of the deposited data

Results flagged for a closer look

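In 1 of 36 sets of 4 libraries, Muc5b in RFP- MHCIIlo, 1 library lay far from the rest: replicate 1 at 123 CPM, with the others at 72.6 to 75.7 CPM; chance sets apart about 1 in 20 such groups. Replicate 1 also had the highest Muc5b in RFP- MHCIIhi (14.03 CPM) and RFP+ MHCIIhi (59.6 CPM), and in RFP+ MHCIIlo it was next to the highest (172.0 against 172.3 CPM). The same RFP- MHCIIlo library had the highest Muc4 of its population and far more Scgb1a1 and Scgb3a1 than the others, and the part of the airway transcripts in the Muc5b value was not tested.

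The label difference differed between the gates by the interaction test for 7 genes. It was larger in MHCIIlo cells for Muc2 by log2 2.50, Muc5ac by 2.27, Tff1 by 2.55, Tff2 by 2.02 and Tff3 by 2.89. It was smaller there for Muc5b (log2 -1.26) and Muc13 (log2 -1.05).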

How the results depend on the processing

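Counts of members called kept within 1.5 times their value under every alternative run. Leaving out 1 library at a time gave 9 higher in RFP+ MHCIIlo against RFP- MHCIIlo throughout, 6 to 7 higher in RFP+ MHCIIhi against RFP- MHCIIhi, 3 higher and 6 lower in RFP- MHCIIlo against RFP- MHCIIhi, 3 to 4 higher and 3 to 4 lower in RFP+ MHCIIlo against RFP+ MHCIIhi, and 5 to 6 larger and 2 to 3 smaller in the interaction. Of 1566 values of single members under alternatives, 1542 kept direction and call, 22 crossed the threshold and 2 changed sign. Both sign changes were Muc5ac without RFP+ MHCIIlo replicates 1 and 4: log2 0.05 (adjusted p = 0.78) against RFP+ MHCIIhi and log2 0.18 (adjusted p = 0.25) against RFP- MHCIIhi; the cause was not tested. Upper-quartile scaling moved the median of all genes in RFP- MHCIIlo against RFP- MHCIIhi to -0.12 and that in RFP+ MHCIIlo against RFP- MHCIIhi to -0.13, where Tff2 was then called lower (log2 -0.38, adjusted p = 0.042), and reversed no member's direction. The interaction of Muc1 was also called with RLE or upper-quartile scaling, without a filter, by DESeq2 and by limma-voom (log2 up to 0.48). Without a filter, Muc4 in the interaction (log2 -0.48, adjusted p = 0.016) and, in RFP+ MHCIIlo against RFP+ MHCIIhi, Muc5ac (log2 -0.34, adjusted p = 0.0052) and Tff3 (log2 0.28, adjusted p = 0.039) were called.

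Replicate numbers are not stated to pair pools across populations. Deviations of 24 same-numbered pairs correlated at -0.02 to 0.13, 4 of them over 0.1, and 14 of 16 libraries correlated best with their own number. Libraries of the same number may thus share a source that the labels do not name, which was not tested. The main p-values treat all libraries as unpaired. With a replicate block the members called were 9 in RFP+ MHCIIlo against RFP- MHCIIlo, 7 in RFP+ MHCIIhi against RFP- MHCIIhi, and in the interaction 6 larger and 2 smaller, Muc1 being added (log2 0.41, adjusted p = 0.039). Depth limits Muc2 and Tff2 in RFP- MHCIIlo most.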
